A study of Mus musculus with 5 samples.

Results

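The genes described here are the abundant predicted genes of the mouse liver table, those whose symbol is Gm followed by a number and whose mean was at least 1000 normalized counts. They are 76 of the 5353 Gm genes and of the 23022 genes listed. They were chosen by the symbol and by the mean over all libraries, and the fold change between groups was not used. Together the 76 took 0.366% of the summed means of the table. Just inside the minimum stood Gm5559 with a mean of 1047, Gm7367 with 1028 and Gm13881 with 1010 normalized counts in the authors' deposited table, and just outside it stood Gm9821 with 999.1, Gm12338 with 995.1 and Gm10123 with 978.0.

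Fetal livers of stage E18.5, late in gestation, gave the poly(A)-selected RNA that was sequenced. There were 3 libraries of 4N liver, made from Hhex knockout blastocysts into which tetraploid (4N) embryonic stem cells with td-Tomato had been injected, and 2 libraries of WT liver. Ploidy, the origin of the cells, the Hhex genotype of the host and the manipulation of the blastocyst therefore cannot be told apart, and since the labels name no litter, the p-values measure only a spread between samples that may be technical. The authors' deposited table gives a mean over all libraries, a log2 fold change with its standard error (SE) and a Wald test for each gene. It holds no value for 1 library alone, so the depth per library is unknown. All fold changes are read as 4N over WT, a direction inferred from the standard errors because the header names no numerator. For both groups a fitted mean was computed from the deposited mean and fold change, weighting the groups by their 3 and 2 libraries, and it carries no error of its own. A gene was called when the authors' adjusted p was under 0.05.

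Hhex, which the host blastocysts lacked, had fitted means of 6753 in 4N livers and 4607 in WT livers and was not called, at 0.55 (SE 0.33, adjusted p = 0.29), per the authors' deposited table. All 12 hepatocyte markers were measured, none at 0. Of other lists of cell type markers, erythroid genes moved most, with 23 higher and 0 lower of 24 and a median log2 fold change of 1.56. Macrophage and Kupffer cell genes had 4 higher and 1 lower of 10. The 9 granulocyte and 6 endothelial genes had median log2 fold changes of 0.12 and 0.03.

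Symbols made of Gm and a number are placeholders that mouse gene nomenclature gives to predicted gene models. They cover several kinds of locus. Processed pseudogenes are retrocopies, made when the spliced messenger RNA of a gene is reverse transcribed and inserted elsewhere in the genome, and they resemble the RNA of the gene they came from. Nuclear copies of mitochondrial DNA are another kind, inserted from the mitochondrial genome. Long noncoding RNAs are transcripts with no known protein, and some Gm models are coding genes that have not been named. In short-read sequencing, a read that falls where a copy and its coding gene are identical has more than 1 possible origin, so the values of both are uncertain, and how the authors' counting treated such reads is not given in the sources used here.

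Of the 76 genes, 73 were found by symbol in GENCODE M21, an annotation of the GRCm38 build used here for names, gene types and transcripts only. It held 48 of them as pseudogenes, 12 as protein coding, 11 as long noncoding and 2 as TEC, models that await an experimental check. The longest transcript of each was aligned with blastn to all protein-coding transcripts of named genes. For 54 genes, a single alignment covered at least 50% of the transcript at 90% identity or more, among them 48 of the 48 pseudogenes and 6 of the 12 genes held as coding. The identity ranged upwards from 92.0% with a median of 99.7%, and 12 copies were identical to their coding gene along the alignment. The longest run without a difference had a median of 361 bases over the 54 copies and was 108 bases in the copy where it was shortest.

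Stretches of 60 bases of the copies with large fold changes show how few bases set a copy apart from its coding gene. They come from the GENCODE M21 transcripts and lie in the coding part of the coding gene, where the copy differs most. Capitals mark the bases at which a copy and its coding gene differ. The first set is Gm9625 on chromosome 13 and Gm8730 on chromosome 8, both copies of Rplp0 on chromosome 5, which encodes a stalk protein of the large ribosomal subunit.
Gm9625: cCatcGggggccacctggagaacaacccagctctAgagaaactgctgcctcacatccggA
Gm8730: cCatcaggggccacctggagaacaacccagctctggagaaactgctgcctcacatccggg
Rplp0: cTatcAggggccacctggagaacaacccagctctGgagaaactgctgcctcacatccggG
Gm9625 differed from Rplp0 at 4 of these 60 bases and Gm8730 at 1. Along the whole alignment Gm9625 had 24 mismatches and Gm8730 had 12.

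The next set is a copy with one of the highest fold changes. Gm6166 on chromosome 9 matches Fabp5 on chromosome 3, which encodes a fatty acid binding protein.
Gm6166: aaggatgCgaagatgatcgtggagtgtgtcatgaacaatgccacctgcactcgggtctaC
Fabp5: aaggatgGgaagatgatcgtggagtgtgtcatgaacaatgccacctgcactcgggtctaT
Gm6166 had 5 mismatches along its whole alignment.

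The last sets are copies that were lower in 4N liver. Gm3375 on chromosome 7 matches Psmb5 on chromosome 14, which encodes a catalytic subunit of the proteasome, and Gm4366 on chromosome 7 matches Eef1g on chromosome 19, which encodes a subunit of translation elongation factor 1.
Gm3375: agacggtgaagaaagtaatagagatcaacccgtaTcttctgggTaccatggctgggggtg
Psmb5: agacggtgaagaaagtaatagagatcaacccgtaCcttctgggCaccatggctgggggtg
Gm4366: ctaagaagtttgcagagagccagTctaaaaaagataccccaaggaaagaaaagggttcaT
Eef1g: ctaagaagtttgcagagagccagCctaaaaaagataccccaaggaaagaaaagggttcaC
Gm3375 had 8 mismatches along its whole alignment and Gm4366 had 5.

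Copies of coding genes stood at both ends of the range of fold changes, with the long noncoding Gm42047 above them, and 46 of the 76 genes were not called. By the authors' deposited table, 4N liver had 13 of the genes higher and 17 of them lower, 39.5% of the 76 called in either direction, against 22.2% of all 8656 genes with a mean of at least 1000 and 15.3% of all 23022 genes. By direction the background at that mean was 11.9% higher and 10.3% lower, and over all genes 7.94% higher and 7.41% lower. Tested against a 1.5-fold change, 17 of the 76 were called, and 5.6% of all genes. These are unlike sets, since 7817 of the 23022 had an SE over 0.8, against 60 of the 8656. The share of the 8656 called by this test is not given here. With a t distribution on 3 degrees of freedom instead of the normal, 0 of the 76 and 0 of the 23022 were called, while 25 of the 76 had an unadjusted p under 0.05 (42 with the authors' Wald test). The t distribution gave no call in simulated data with changed genes either. The median log2 fold change was -0.20 over the 76 genes, against 0.02 over the 8656 and -0.0010 over all genes listed. A change of at least 2-fold was listed for 27 of the 76 (35.5%), against 11.3% of the 8656. The minimum itself bears on these shares, because 11 of the 76 reached a fitted mean of 1000 only in the 4N group and 9 only in the WT group. Among the 56 that reached it in both groups, 3 were higher and 10 lower, 23.2% in all, against 19.7% of the 7970 other genes that did so. By direction, 5.36% of the 56 were higher, against 10.7% of the 7970, and 17.9% were lower, against 8.96%. A change of at least 2-fold was listed for 21.4% of the 56, against 8.77% of the 7970. Counts of called genes over the 76 are therefore given as a description. The 46 not called ran from -3.25 for Gm28439 to 0.75 for Gm43449.

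**Figure D1:**
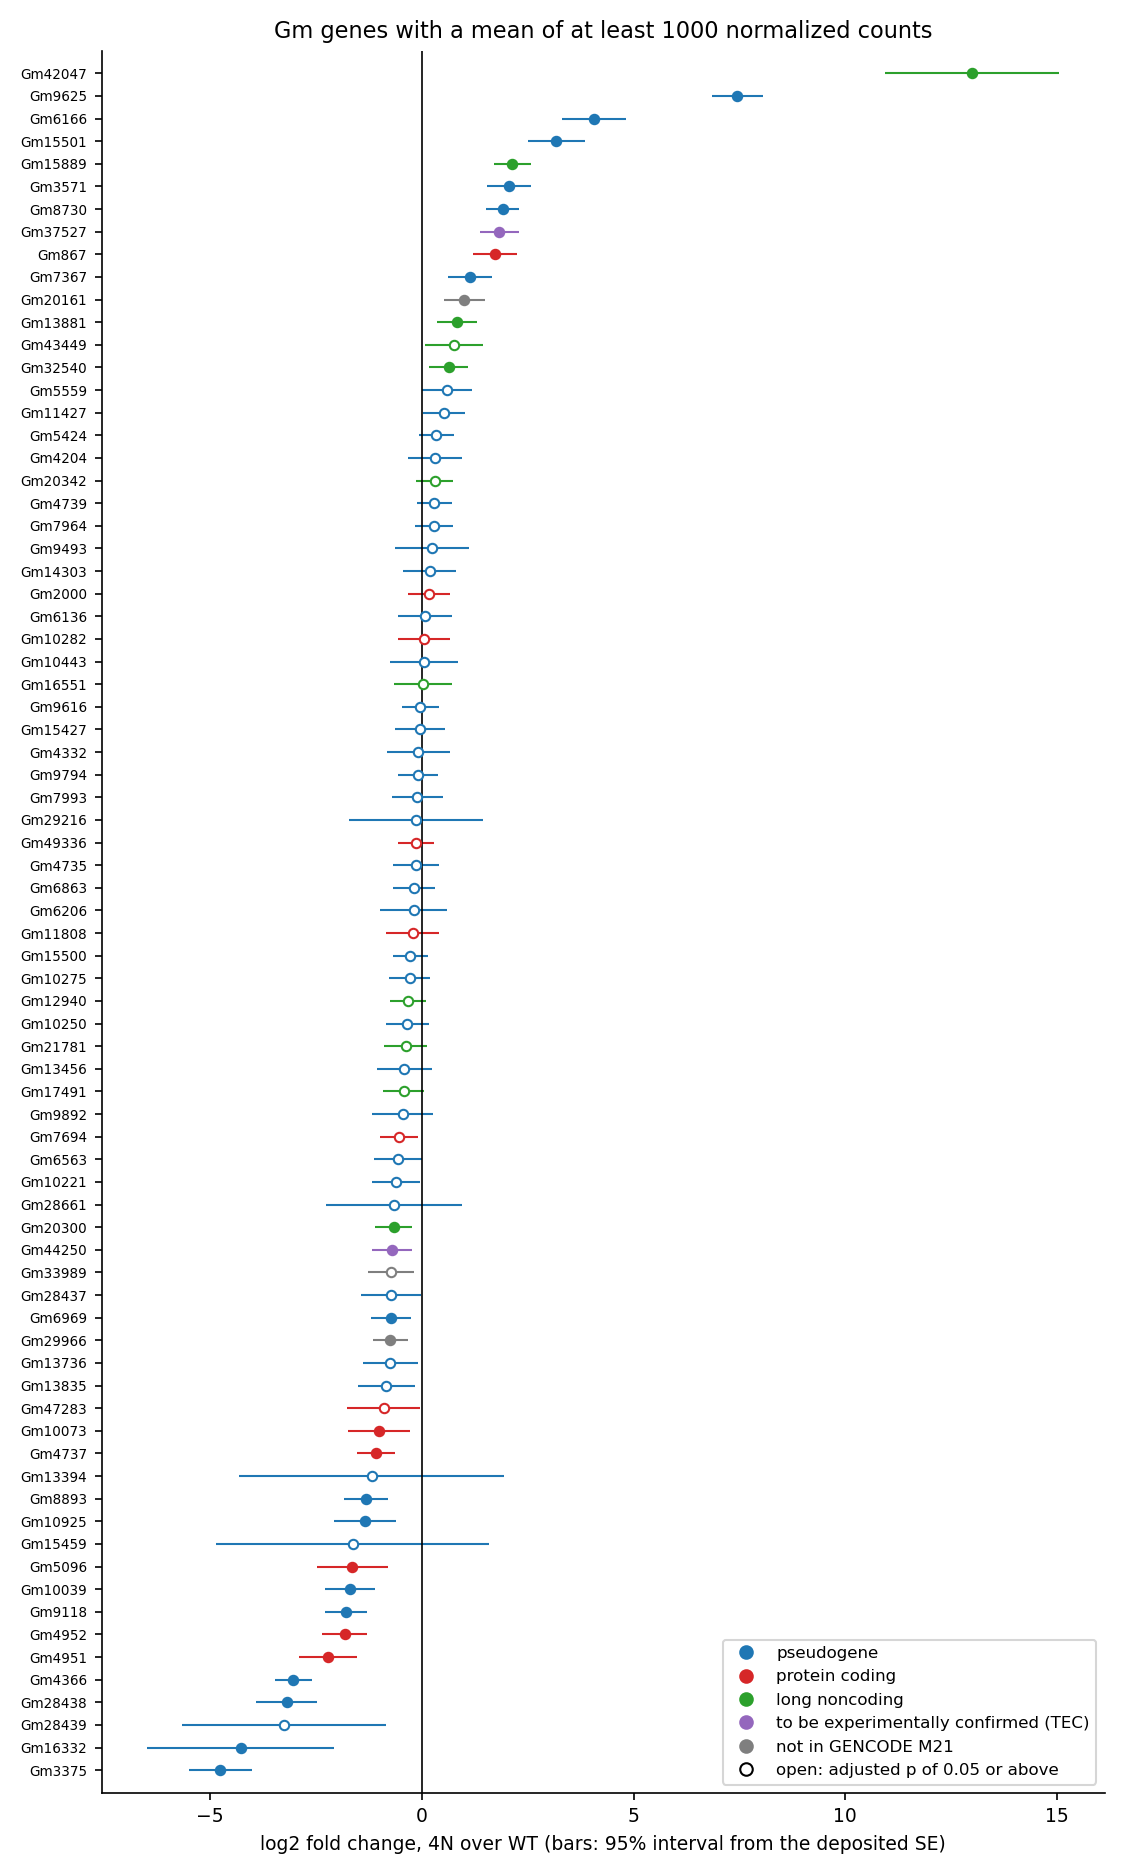
Log2 fold change of 4N over WT (x axis) for the 76 Gm genes (rows, sorted), with 95% intervals from the deposited standard errors. Colours give the gene type in GENCODE M21 and filled points an adjusted p under 0.05. The median absolute log2 fold change was 0.66, and 27 of the 76 points lie at a change of at least 2-fold. Gm42047 (12.99) and Gm9625 (7.45) stand at the upper end, and Gm3375 (-4.76) at the lower end.

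By gene type, 6 of the 48 pseudogenes were higher and 9 lower, with a median of -0.19. Of the 12 genes held as coding, 1 was higher and 5 were lower, with a median of -0.72. Of the 11 long noncoding genes, 4 were higher and 1 was lower, with a median of 0.30. Of all 8656 genes with a mean of at least 1000, 11.9% were higher and 10.3% lower. Some genes counted here reached the minimum in a single group only. Fitted WT means were 29.0 for Gm9625 and 1.02 for Gm42047, and the fitted 4N mean was 97.5 for Gm3375. The counts by type are therefore a description. Among the 54 genes that match a coding gene, 18 were called (33.3%), and among the 22 with no such match, 12 were (54.5%). RefSeq's gene table, also of GRCm38, listed 59 of the 76, and 47 of them as pseudogenes, of which 5 were higher and 10 lower.

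Among copies of ribosomal protein genes, Gm9625 and Gm8730 rose although Rplp0 itself fell. The authors' deposited table gave Gm9625 a log2 change of 7.45 (SE 0.31, adjusted p = 5.3e-125), and its fitted mean was 5069 normalized counts in 4N livers and 29.0 in WT livers. Gm8730, which had the highest mean of the 76 (29138), stood at 1.91 (SE 0.20, adjusted p = 2.5e-19), per the authors' deposited table, with fitted means of 41258 in 4N livers and 10960 in WT livers. Rplp0 stood at -0.84 (SE 0.22, adjusted p = 0.0023), per the authors' deposited table, with fitted means of 38478 in 4N livers and 68888 in WT livers. The 2 copies thus held 54.6% of the fitted count of the 3 genes together in 4N livers and 13.8% in WT livers. Summed, the 3 genes had a log2 ratio of 0.09, so the group means of the sum differed little while those of its parts went opposite ways. Whether reads were exchanged between these genes was not tested.

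In the other direction, Gm10073, coding in GENCODE M21 and a pseudogene in RefSeq and a copy of the ribosomal stalk gene Rplp1, fell by 1.02 (SE 0.37, adjusted p = 0.043), per the authors' deposited table, beside -0.13 (SE 0.29) for Rplp1. For 11 of the 15 ribosomal protein copies neither the copy nor its coding gene was called. Each of those 11 lay within 0.5 of its coding gene on the log2 scale, for example Gm9794 at -0.09 beside Rpl23 at -0.01, Gm6136 at 0.08 beside Rpl6 at 0.08 and Gm10275 at -0.29 beside Rpl12 at -0.25 in the authors' deposited table. The 81 listed genes named Rpl or Rps had a median log2 fold change of 0.07, with 5 higher and 3 lower.

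Copies of metabolic and protein-handling genes went both ways. Gm6166 rose to a fitted mean of 11504 in 4N livers, against 687.1 in WT livers, a log2 change of 4.07 (SE 0.39, adjusted p = 3.9e-23), per the authors' deposited table. Fabp5 stood at 0.01 (SE 0.22) there and was not called. Gm3571 rose by 2.05 (SE 0.27, adjusted p = 9.35e-13) and its coding gene Fdps, a farnesyl diphosphate synthase of the cholesterol pathway, by 1.73 (SE 0.39), per the authors' deposited table. Gm7367 rose by 1.13 (SE 0.26, adjusted p = 3.1e-04), beside 0.80 (SE 0.30) for Ubald2, which was not called, in the authors' deposited table. So Gm3571 and Fdps were a pair in which both rose, whereas Gm6166 rose and Fabp5 was not called. Fabp5 had far higher fitted means, 69545 in 4N livers and 69141 in WT livers. Whether reads were exchanged between Gm6166 and Fabp5 was not tested.

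Other copies fell. Gm3375 fell to a fitted mean of 97.5 in 4N livers, against 2645 in WT livers, a log2 change of -4.76 (SE 0.38, adjusted p = 9.0e-34), per the authors' deposited table. Its coding gene Psmb5 rose, at 0.94 (SE 0.31, adjusted p = 0.019), per the authors' deposited table, and the sum of both had a log2 ratio of -0.55. Gm4366 stood at -3.04 (SE 0.22, adjusted p = 4.8e-39), per the authors' deposited table, with fitted means of 872.4 in 4N livers and 7166 in WT livers. Eef1g was not called, at 0.53 (SE 0.22), and the sum had a log2 ratio of 0.13. Gm10039 fell by 1.71 (SE 0.30) and its coding gene Atp5g1, for the ring subunit of ATP synthase, was not called at 0.56 (SE 0.32), per the authors' deposited table. Gm9118 fell by 1.79 (SE 0.25) beside 0.00 (SE 0.24) for Npm1, a nucleolar chaperone, in the authors' deposited table. Gm4737, held as coding in GENCODE M21 and RefSeq, fell by 1.08 (SE 0.22, adjusted p = 3.0e-05) while the gene it matches at 99.7% identity, the S-adenosylhomocysteine hydrolase gene Ahcy, rose by 0.63 (SE 0.23), per the authors' deposited table. Gm6969 fell by 0.73 (SE 0.25) and its coding gene Cox7a2l, named for a subunit of cytochrome c oxidase, by 0.54, per the authors' deposited table. In the pairs of Psmb5 and Ahcy the copy fell and the coding gene rose. Among the most abundant copies, Gm7993 was not called at -0.11 (SE 0.31), beside 0.62 (SE 0.23) for the polyamine synthesis gene Odc1, and Gm5424 was not called at 0.34 (SE 0.21), beside 0.14 (SE 0.21) for the urea cycle gene Ass1, per the authors' deposited table.

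Copies of Bhmt and Serpina1a, genes that hepatocytes transcribe, were lower. Gm5096, on chromosome 18, fell by 1.64 (SE 0.43, adjusted p = 0.0019), per the authors' deposited table, and its coding gene Bhmt, a betaine-homocysteine methyltransferase, fell by 1.89 (SE 0.35). Gm8893, a pseudogene of the antitrypsin cluster that lies within Serpina1b in the annotation, fell by 1.32 (SE 0.27, adjusted p = 2.2e-05), per the authors' deposited table. Serpina1a, its closest match, stood at -0.12 (SE 0.27) and Serpina1b at -0.64 (SE 0.19, adjusted p = 0.0076), per the authors' deposited table. Hepatocyte markers fell in the same comparison in 5 of 12 cases and rose in 0, with a median of -0.41 and summed fitted means of 12037500 in 4N livers and 12570000 in WT livers. The part of that shift in these values was not tested, and in bulk tissue fewer cells of a type and less RNA per cell cannot be told apart.

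Over all 54 pairs, 31 lay within 0.5 of each other on the log2 scale and 19 differed by more than 1, with a median absolute difference of 0.33. In 30 pairs neither gene was called, in 10 only the copy was, in 6 only the coding gene was, in 3 both were called in 1 direction and in 5 they were called in opposite directions. These differences were not tested, because both values of a pair rest on the same libraries and may share reads. As a description across genes, which are not independent replicates and share libraries, Pearson's r between the 54 pairs of fold changes was -0.02 and Spearman's rho 0.11. A difference above 1 was listed for 11 of the 39 copies with at least 99% identity and for 8 of the 15 with less. The minimum mean bears on these pairs, and on the families below, as it does on the calls. Gm9625 reached it in the 4N group only (fitted WT mean 29.0) and Gm3375 in the WT group only (fitted 4N mean 97.5). Such copies enter because they are high in a single group, so the counts of differing pairs are a description.

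**Figure D2:**
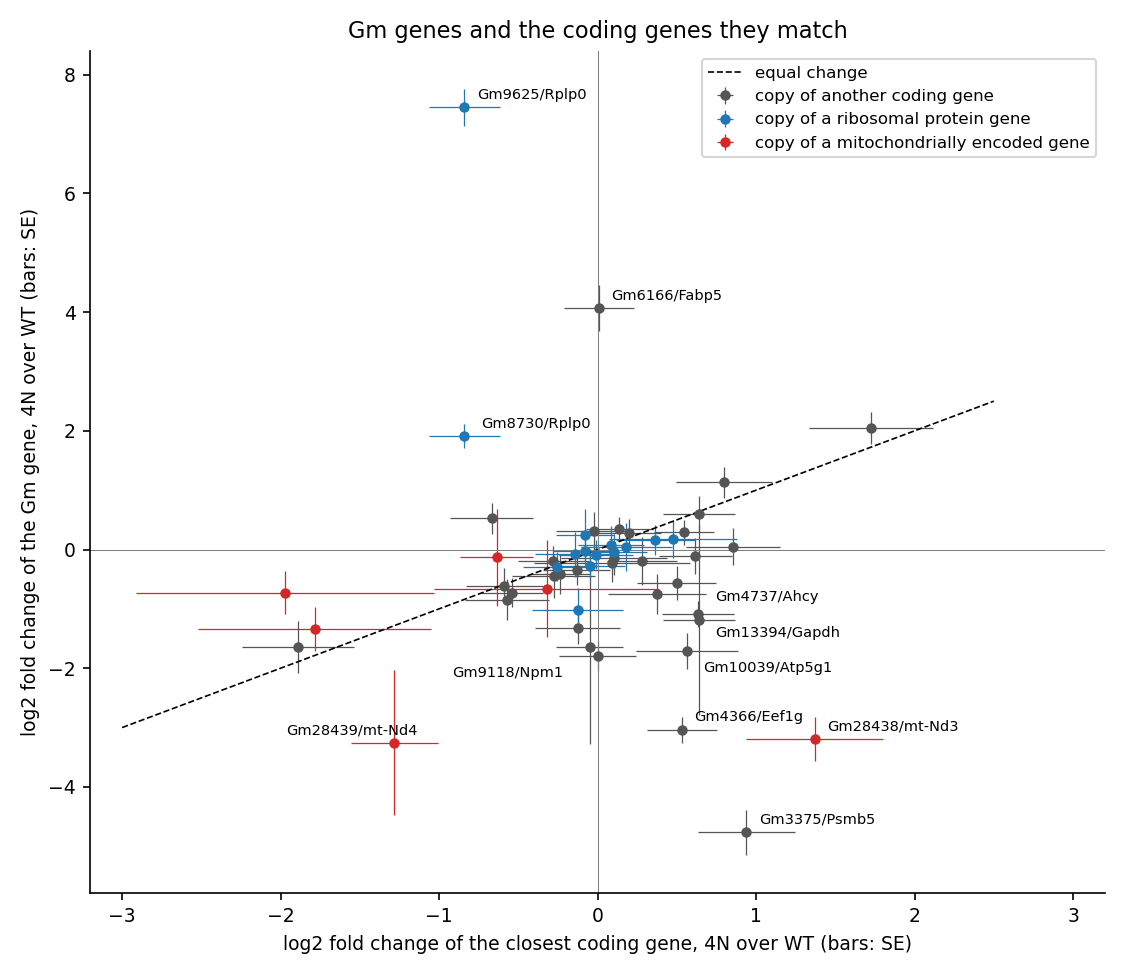
Log2 fold change of 4N over WT of the coding gene (x axis) and of the Gm gene that matches it (y axis), for 52 of the 54 pairs, with standard errors as bars and equal change as a dashed line. Points far from the line are named, among them Gm9625 and Gm8730 with Rplp0 and Gm3375 with Psmb5, while 31 pairs lie within 0.5 of equal change.

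The 54 copies belong to 52 coding genes, and the share of the fitted count that went to the copies was computed for each. In 18 of these families a copy differed from its coding gene by more than 1, and in 5 of the 18 the share of the copies was higher in 4N livers and in 13 lower. The summed fitted counts of the 18 families had log2 ratios from -1.54 to 0.22, with a median absolute value of 0.25, beside 0.60 for their coding genes alone, and the sum was nearer 0 than the coding gene in 11 of them. Over all 52 families the median absolute values were 0.25 for the sums and 0.37 for the coding genes, and the sum was nearer 0 in 28. For Psmb5 the copy held 3.55% of the sum in 4N livers and 65.7% in WT livers, for Atp5g1 18.3% in 4N livers and 52.0% in WT livers, and for Eef1g 2.96% in 4N livers and 26.6% in WT livers. For Fabp5 it was 14.2% in 4N livers and 0.984% in WT livers. These 18 families were picked for that difference, so their shares had to differ. The log2 ratio of a sum lies between those of its parts, so sums nearer 0 can follow from that choice too. Whether reads were exchanged within these families was not tested. Over all 52 families the share of the copies differed between the groups by over 10 percentage points in 14.

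**Figure D3:**
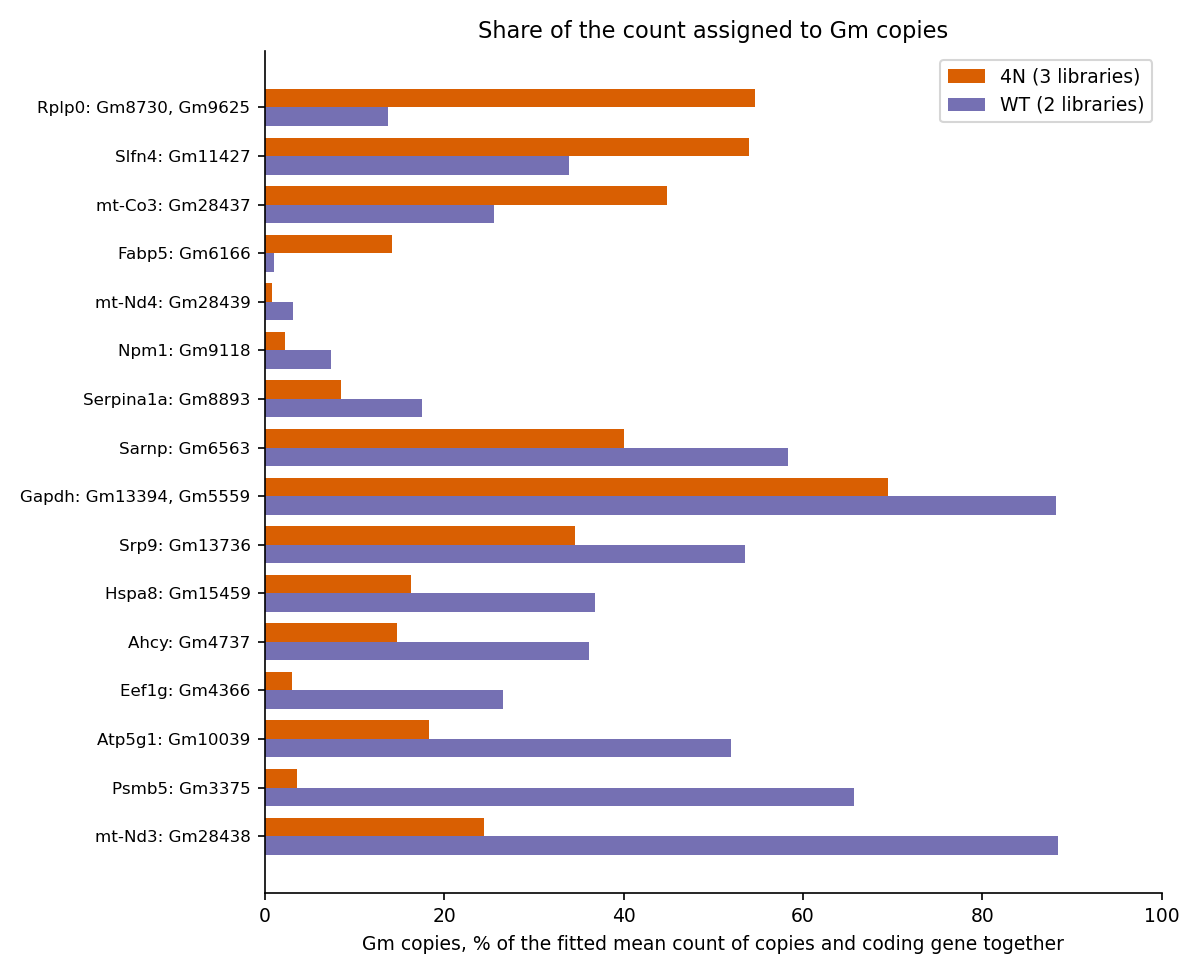
Share of the fitted mean count that was assigned to Gm copies, out of copies and coding gene together (x axis, percent), in 4N liver (upper bar) and WT liver (lower bar) for 16 of the 18 coding genes with a copy whose log2 fold change differed by more than 1. The share was 54.6% in 4N and 13.8% in WT for Rplp0, and 3.55% in 4N and 65.7% in WT for Psmb5.

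A block of nuclear copies of mitochondrial genes on chromosome 1 was lower or not called. It holds 7 neighbouring pseudogenes on the minus strand in the annotation, and 6 of them reached the minimum. In their order there, Gm28439 matches mt-Nd4, Gm28438 mt-Nd3, Gm28437 mt-Co3, Gm10925 mt-Atp6, Gm28661 mt-Co2 and Gm29216 mt-Co1, which encode subunits of the respiratory chain and of ATP synthase, and 4 of the 6 are identical to their mitochondrial gene along the alignment. Gm28438 fell by 3.19 (SE 0.37, adjusted p = 3.4e-16), per the authors' deposited table, with fitted means of 257.9 in 4N livers and 2361 in WT livers, and Gm10925 fell by 1.34 (SE 0.37, adjusted p = 0.0035). RefSeq lists mt-Atp6 among the synonyms of Gm10925. Not called were Gm28439 at -3.25 (SE 1.23, adjusted p = 0.052), Gm28437 at -0.73 (SE 0.36), Gm28661 at -0.66 (SE 0.82) and Gm29216 at -0.13 (SE 0.81), per the authors' deposited table. The seventh, Gm10222, had a mean of 460.0 and fell by 1.77 (SE 0.42). The neighbours thus did not share a value, although all 7 were negative. Of their mitochondrial counterparts, the authors' deposited table called mt-Nd4 (-1.28, SE 0.28) and mt-Co1 (-0.64, SE 0.23) lower and mt-Nd3 (1.37, SE 0.43) higher. The listed values of Gm28438 and mt-Nd3 thus went opposite ways, although the alignment of 345 bases holds 1 mismatch. Their sum had a log2 ratio of -1.34, and Gm28438 held 24.4% of it in 4N livers and 88.4% in WT livers. A rise of mt-Nd3 RNA therefore cannot be read from its own value alone.

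Standard errors were wider for these genes than for other genes of such a mean. Their median SE was 0.29, against 0.24 for the 8580 other genes. An SE over 0.8 was listed for 7 of the 76 (9.21%) and for 53 of the 8580 others (0.618%), and 6 of the 7 were copies of a coding gene, as were 54 of the 76. The pair with the widest was Gm15459, a copy of the chaperone gene Hspa8, at -1.64 (SE 1.64, adjusted p = 0.60), and Gm13394, a copy of the glycolytic gene Gapdh, at -1.19 (SE 1.60, adjusted p = 0.72), per the authors' deposited table. Their means, 18322 and 15604 normalized counts, were the next highest of the 76 after Gm8730, and their 95% intervals ran from -4.86 to 1.58 and from -4.32 to 1.95. Hspa8 had an SE of 0.21 and Gapdh of 0.23. No direction can be read for Gm15459 and Gm13394. A second copy of Gapdh, Gm5559, was not called at 0.60 (SE 0.30), beside a call for Gapdh at 0.64 (adjusted p = 0.034), in the authors' deposited table. Summed, Gapdh and its 2 copies had a log2 ratio of -0.73. The copies held 69.5% of that sum in 4N livers and 88.2% in WT livers, most of it in Gm13394 with its wide SE.

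**Figure D4:**
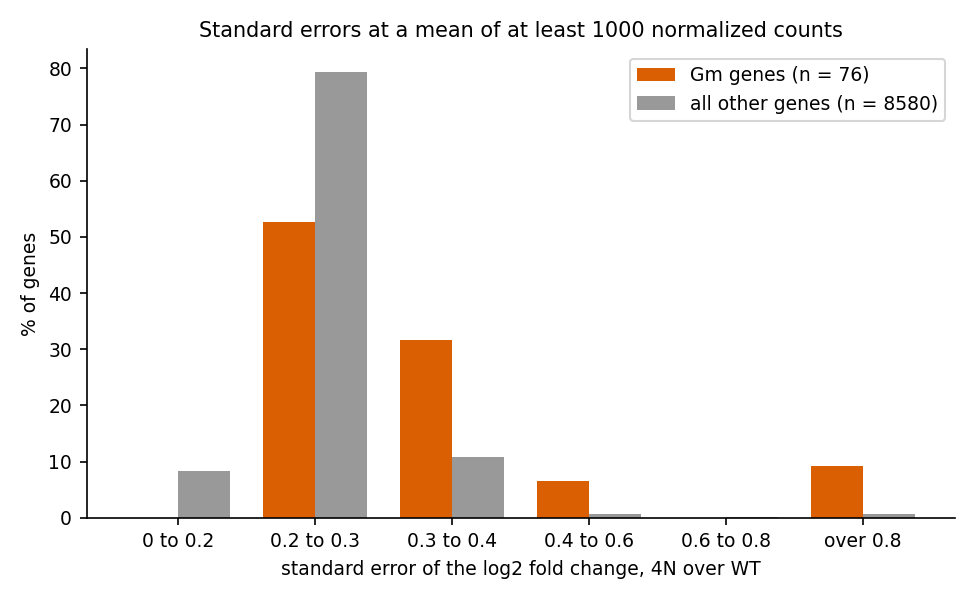
Share of genes (y axis, percent) in each range of the standard error of the log2 fold change (x axis), for the 76 Gm genes and the 8580 other genes of such a mean (1000 normalized counts or more). An SE over 0.8 was found in 9.21% of the Gm genes and 0.618% of the others.

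None of the 11 long noncoding genes had a close coding match. Gm42047, annotated as a long intergenic RNA on chromosome 8, had the highest fold change of the 76 and of the whole table. It had a fitted mean of 8339 in 4N livers and 1.02 in WT livers and a log2 change of 12.99 (SE 1.05, adjusted p = 1.7e-32), per the authors' deposited table, with a 95% interval of 10.93 to 15.06. The size of that fold rests on very few WT reads. Its nearest named coding neighbours with a listed value were Klhdc4, at 0.23 (SE 0.33) and not called, and Slc7a5, an amino acid transporter gene, at 0.68 (SE 0.20, adjusted p = 0.0079), per the authors' deposited table. Gm42047 also overlaps Gm20388, annotated as coding, on the same strand without shared exon bases. Gm20388 has no listed value. Gm15889, also on chromosome 8, rose by 2.13 (SE 0.22, adjusted p = 2.1e-19), per the authors' deposited table, with fitted means of 2110 in 4N livers and 481.2 in WT livers. Its neighbours Slc12a3 (-0.03) and Herpud1 (-0.12) were not called. It shares exon bases with the antisense gene Gm15890, which stood at 2.60 (SE 0.55). For Gm42047 and Gm15889, none of the coding neighbours with a listed value reached a log2 change of 1.

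Some genes with smaller changes had a neighbour that was called too. Gm13881, on chromosome 2, rose by 0.83 (SE 0.24, adjusted p = 0.0067), per the authors' deposited table, and its neighbour Lmo2, a blood cell transcription factor gene, by 1.22 (adjusted p = 1.2e-07). Gm32540, on chromosome 8, rose by 0.63 (SE 0.23, adjusted p = 0.044), and its neighbour Irs2, an insulin receptor substrate gene, by 0.73 (adjusted p = 0.0096), in the authors' deposited table. Gm20300, on chromosome 10, fell by 0.67 (SE 0.22, adjusted p = 0.020), and its neighbour Hint3 by 0.78 (adjusted p = 0.041), in the authors' deposited table. Gm44250, a TEC model between the paraoxonase genes Pon1 and Pon3 on chromosome 6, fell by 0.70 (SE 0.24, adjusted p = 0.030), while Pon1 fell by 3.41 and Pon3 by 0.68 in the authors' deposited table. Gm20161, which RefSeq lists as a long noncoding RNA on chromosome 17, rose by 1.00 (SE 0.25, adjusted p = 6.9e-04), per the authors' deposited table. Gm29966, found in neither annotation, fell by 0.74 (SE 0.21, adjusted p = 0.0054), per the authors' deposited table. The other coding neighbours of Gm13881 (Caprin1), Gm32540 (Myo16) and Gm20300 (Trmt11) were not called. Neighbours of Gm20161 and Gm29966 were not analysed here. The genes of this paragraph with a called neighbour were picked after the values were seen, so the shared direction is a description.

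Some of the genes overlap another gene in the annotation. The labels do not say that the library kit kept strand, and without strand the reads of genes that overlap on opposite strands cannot be told apart. Gm37527, a TEC model, lies on chromosome 6 within an intron of Kel, a blood group antigen gene of red cells, on the same strand, so that strand would not separate reads of unspliced Kel RNA there. It rose by 1.83 (SE 0.23, adjusted p = 2.9e-13) and Kel by 1.64 (SE 0.20), per the authors' deposited table. Erythroid markers rose in the same comparison in 23 of 24 cases and fell in 0, with a median of 1.56 and summed fitted means of 3695260 in 4N livers and 1137790 in WT livers, none of them at 0, and their part in the value of Gm37527 was not tested. Gm867, a coding gene on chromosome 10, rose by 1.73 (SE 0.26, adjusted p = 2.3e-09), while Chchd10, a mitochondrial protein gene whose exons it overlaps on the other strand, fell by 1.54 (SE 0.25), per the authors' deposited table. Gm43449, annotated antisense to the alpha-fetoprotein gene Afp on chromosome 5, was not called at 0.75 (SE 0.35, adjusted p = 0.14), beside a rise of 1.03 (SE 0.26) for Afp in the authors' deposited table. Gm17491, likewise within an intron and on the strand of the phosphate transporter gene Slc20a2, was not called at -0.43 (SE 0.25), beside a fall of 0.51 (SE 0.19) for Slc20a2 in the authors' deposited table.

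A pair of coding Gm genes without a close copy fell. Gm4952, on chromosome 19, fell by 1.83 (SE 0.27, adjusted p = 7.4e-10), per the authors' deposited table, with fitted means of 5272 in 4N livers and 18681 in WT livers. Its neighbour Glyat, which encodes a glycine conjugating enzyme of liver mitochondria, fell by 4.58, while its other coding neighbour, Fam111a, was not called at 0.11 (SE 0.27). The best alignment of Gm4952 was to Keg1, at 77.7% identity over 31.4% of the transcript, and Keg1 was not called at -0.17 (SE 0.32). Gm4951, on chromosome 18 and also known as Ifgga2 in RefSeq, fell by 2.22 (SE 0.35, adjusted p = 1.2e-08), per the authors' deposited table, with fitted means of 1645 in 4N livers and 7658 in WT livers. Its best alignment was to Iigp1, an interferon-inducible GTPase gene, at 86.5% identity over 48.4% of the transcript, and Iigp1 fell by 2.52 (SE 0.25). Gm4951 and Iigp1 thus both fell, whereas Gm4952 fell and Keg1 was not called.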

How the data were processed

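RNA of 5 E18.5 livers was measured (3 4N, 2 WT libraries). Per the submitters' processing notes the build is GRCm39; no aligner, counter or annotation is given in the sources used here. A single comparison table was deposited. Its mean is a signal, the mean normalized count over the libraries, per the file headers. Fold changes and their errors are deposited as log2 values, and the Wald statistic is a score equal to their ratio, as recomputed from the deposited columns. The deposited p-values equal 2-sided normal probabilities of that score, and the adjusted ones their Benjamini-Hochberg adjustment over 23022 genes, as recomputed.

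The header names no numerator. For genes with a fitted mean near 0 in a group of 3 or 2 libraries, the SE has a lower bound of 1.18 or 1.44. This bound assumes a floor of 0.5 for the fitted count of a library. If WT were the numerator, 18 genes would fall below the bound, and with 4N none of the 305 and 683 genes does, so the values are read as 4N over WT.

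The members and lists were chosen with earlier results of these data known. Named genes were the 10 largest rises and falls among called members, the 10 highest and 3 lowest means and the 3 just under the minimum, with their closest coding genes and the genes that overlap them; other members were named after their values were seen. The results of 2 matched pairs that the rule named are not reported here. Copies were matched with blastn 2.17.0 (E-value 1e-20), to named coding genes only. Fitted means solve the deposited mean and fold change for 3 and 2 libraries. Counts were recomputed at an adjusted p under 0.01, against a 1.5-fold change (both tails summed), with a t reference, recentred, with another set of genes for adjustment and with minimum means of 500 and 2000. The Wald, 1.5-fold and t calls and the blastn match were tested on simulated data, in which the t calls found no changed gene. Software was Python 3.11.15, scipy 1.17.1, numpy 2.4.6, matplotlib 3.10.9 and pandas 2.3.3.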

Additional observations from a re-analysis of the deposited data

How the results depend on the processing

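Of the 76 genes, 30 were called, 13 higher and 17 lower. Against a 1.5-fold change the counts were 17 in all, 9 higher and 8 lower. That test called 5.6% of all genes listed, a set that includes genes of low mean. With the t distribution on 3 degrees of freedom, 0 were called in all, 0 higher and 0 lower, as were 0% of all genes, with 25 of the 76 at an unadjusted p under 0.05 (42 with the authors' Wald test); that test made no call in simulated data with changed genes either, so its count says nothing about stability. A minimum mean of 500 gave 53 called of 158 genes (33.5%), 23 higher and 30 lower, against 21.2% of all 10598 genes at that mean. A minimum of 2000 gave 16 of 42 (38.1%), 5 higher and 11 lower, against 24.2% of all 6132. The counts moved because the number of genes changes. Without the copies of coding genes, a choice made after seeing the data, 12 of 22 remained (54.5%), 7 higher and 5 lower. Of the 54 copies, 18 were called (33.3%). Beside both shares stand 22.2% of all 8656 genes with a mean of at least 1000. The minimum bears on both, so they are a description. An adjusted p under 0.01, recentring (a shift of 0.05) and adjustment over abundant genes only gave 25, 31 and 32. Beside these, recentring called 1663 of the 23022 genes higher and 1921 lower. Adjustment over abundant genes only, the 8656 with a mean of at least 1000, called 1145 of them higher and 989 lower. The share of all genes called at an adjusted p under 0.01 is not given here. With RefSeq gene types, 6 called genes had no type, against 2 in GENCODE M21. The median log2 fold change lay between -0.26 and -0.12 after recentring, at the other minimum means and with Rik names added. Of the 28 genes named by rule, 6 were not called as deposited. Of the other 22, 5 lost their call against a 1.5-fold change and all 22 with the t distribution. Of the 28, 0 changed sign. The first of these tests asks for a larger change and the second has wider tails. No paired analysis was possible because the groups share no replicate number, and leaving out a library was not possible from a table of group results.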
